A study of Mus musculus with 13 samples.

Results

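The Kruppel-like factor genes were followed in the mouse, through F4/80+ cells taken from the fetal liver of E13.5 embryos. The members were taken by name as Klf1, Klf2, Klf3, Klf4, Klf6, Klf9, Klf10, Klf11, Klf13 and Klf16, which are 10 of the 17 Klf genes in the annotation. They are 10 of 23337 genes in the EKLF+/+ and EKLF-/- count files, of 35427 genes summed from the EKLF/GFP files, and of 54227 genes in the single-cell matrix. All 10 were listed in each data set and all 10 passed the count minimum in both bulk comparisons.

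Kruppel-like factors bind CACCC boxes and related GC-rich DNA through zinc fingers at their C terminus. Klf1 encodes EKLF, the erythroid activator of the adult beta-globin gene, and Klf3 encodes a repressor that recruits CtBP and is a known target of EKLF in erythroid cells. Klf2, Klf4 and Klf6 encode activators known from endothelial and myeloid cells, and Klf9, Klf10, Klf11, Klf13 and Klf16 encode factors that can recruit the corepressor Sin3a.

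The bulk libraries, 3 for each group, came from F4/80+ cells of EKLF+/+ embryos, of EKLF-/- embryos, and of EKLF/GFP embryos whose cells were gated as GFP+ or as GFP-. F4/80 is the surface protein that Adgre1 encodes. The labels give C57BL/6 for every sample, while the paper's list of reagents gives another background, 129S4/SvJae, for the EKLF-null line. In EKLF/GFP embryos the promoter of EKLF drives GFP, so that the sort itself used the activity of the Klf1 promoter. RNA of EKLF/GFP+ cells was made with another kit because cells were few, so the kit and the GFP gate cannot be told apart. One single-cell library was made from pooled EKLF+/+ littermates of 1 mother, and it has no replicate. Bulk cells were sorted by flow cytometry, while those of the single-cell library were selected with magnetic beads and an Icam4/αv inhibitor peptide. By the paper's own check, not all bead-selected cells were F4/80+.

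Counts on genes were 10695514 to 15362161 per library in the EKLF+/+ and EKLF-/- set and 22721819 to 28735267 in the EKLF/GFP set. The single-cell matrix held 70227376 molecule counts in 3096 cells. Bulk levels are given as CPM, the counts of a gene scaled to the library total after TMM normalization, and SE is the standard error of a log2 fold change. Adgre1 did not pass the test in either comparison, with 29.4 to 40.3 CPM in EKLF-/- against 26.8 to 33.6 CPM in EKLF+/+ and with 36.6 to 104 CPM in EKLF/GFP+ against 48.8 to 84.5 CPM in EKLF/GFP-. Erythroid markers were abundant in all bulk groups.

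The promoter windows of Klf1, Klf3, Klf9 and Klf11 are shown because these genes had the largest falls in EKLF-/- and all rose in EKLF/GFP+ cells, a choice made after their values were seen. Each window holds 300 bases, 250 before and 50 after the start that RefSeq gives, from GRCm38.p6 and read 5′ to 3′ on the strand of the gene. Capitals mark matches to CCNCNCCC on either strand, a loose form of the CACCC box, and overlapping matches run together. The positions are chr8:84901732-84902031 (plus strand) for Klf1, chr5:64803271-64803570 (plus strand) for Klf3, chr19:23140976-23141275 (plus strand) for Klf9 and chr12:24651121-24651420 (plus strand) for Klf11.
Klf1: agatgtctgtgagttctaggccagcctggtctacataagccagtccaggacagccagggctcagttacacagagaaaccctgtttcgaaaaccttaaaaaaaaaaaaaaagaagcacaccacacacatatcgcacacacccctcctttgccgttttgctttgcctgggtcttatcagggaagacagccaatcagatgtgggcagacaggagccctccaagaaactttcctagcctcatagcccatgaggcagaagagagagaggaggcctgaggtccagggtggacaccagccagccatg
Klf3: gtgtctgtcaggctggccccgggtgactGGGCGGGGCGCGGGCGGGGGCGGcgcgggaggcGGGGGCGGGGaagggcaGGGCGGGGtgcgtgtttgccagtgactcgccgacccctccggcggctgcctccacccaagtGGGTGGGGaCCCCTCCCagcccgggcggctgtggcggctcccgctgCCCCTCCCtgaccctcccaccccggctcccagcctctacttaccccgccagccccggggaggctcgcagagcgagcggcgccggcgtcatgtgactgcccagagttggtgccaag
Klf9: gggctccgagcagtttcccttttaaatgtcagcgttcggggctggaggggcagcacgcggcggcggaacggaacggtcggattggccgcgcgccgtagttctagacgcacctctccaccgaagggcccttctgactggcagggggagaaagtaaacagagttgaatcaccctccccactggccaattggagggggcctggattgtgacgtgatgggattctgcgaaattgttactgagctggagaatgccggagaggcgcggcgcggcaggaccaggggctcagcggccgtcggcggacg
Klf11: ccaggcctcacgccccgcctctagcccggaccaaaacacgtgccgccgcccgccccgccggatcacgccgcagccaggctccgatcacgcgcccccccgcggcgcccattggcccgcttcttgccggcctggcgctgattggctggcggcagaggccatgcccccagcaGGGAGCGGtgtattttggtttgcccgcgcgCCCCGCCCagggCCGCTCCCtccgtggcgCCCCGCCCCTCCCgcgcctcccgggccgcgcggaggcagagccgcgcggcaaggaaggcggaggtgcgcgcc

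The window of Klf3 held 10 matches to CCNCNCCC and that of Klf11 held 5, while those of Klf1 and Klf9 held 0. The letters caccc alone, which do not fill this pattern, do occur in the windows of Klf1 and Klf9. Of all 32851 windows in the RefSeq table, 49.5% held at least 1 match. Windows were found for 8 members, and those of Klf2, Klf4, Klf6 and Klf13 held 4, 9, 3 and 5 matches. The stricter CCACACCC, present in 3.56% of all windows, was found in 0 of the 8 members. AGATAA, 1 form of the GATA motif and present in 11.2% of all windows, was also found in 0 of the 8. Other forms were not searched, and the window of Klf1 holds ttatca, which reads TGATAA on the other strand. The counted motifs were searched on both strands in these windows alone, and a match is not a measured binding site. Klf10 and Klf16 are named only.

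Part of the family was lower in EKLF-/- cells, and no member was called higher. Klf1, Klf3, Klf9, Klf11 and Klf16 passed the test as lower in EKLF-/- cells, and Klf2, Klf4, Klf6, Klf10 and Klf13 did not pass it. That is 5 of 10 members lower, where 10.6% of the 12753 genes tested were called lower (edgeR's quasi-likelihood test, adjusted over all genes by Benjamini-Hochberg, threshold 0.05). One of the 5 is Klf1, the gene that was targeted, so its fall was fixed by the design, and 4 of the other 9 members were lower. In the other direction 0 members were called, against 9.72% of all genes, and 0 members were higher at an unadjusted p under 0.05 or by DESeq2. Of the 10 members, 8 lay lower in EKLF-/- with no overlap between the groups, and 0 lay higher. Klf6 is counted there on unrounded values, since its groups touch at 66.4 CPM as printed. Of all genes, 46.3% did not overlap, 23.4% lower and 22.9% higher. The median log2 fold change was -0.57 over the members and 0.02 over all genes. With 3 libraries against 3, an exact test of 1 gene alone gives no p below 0.1.

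Klf1 checks the genotype labels. It had 362, 305 and 376 CPM in EKLF+/+ replicates 1 to 3 and 58.7, 64.2 and 57.1 CPM in EKLF-/- replicates 1 to 3. The groups were far apart, and the EKLF-/- libraries still held Klf1 reads, whose place in the gene a gene count does not show. The log2 fold change was -2.53 (SE 0.12, adjusted p = 7.22e-06 by edgeR's quasi-likelihood test, Benjamini-Hochberg adjusted), a level 0.173 times that of EKLF+/+. The gene lies on chromosome 8 of GRCm38 from 84901928 to 84905291.

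Klf3 had the largest fall of the 10 members. It stood at 157, 131 and 155 CPM in EKLF+/+ and at 13.3, 10.6 and 13.7 CPM in EKLF-/-. The groups were wide apart, and the level was 0.0851 times that of EKLF+/+. The log2 fold change was -3.55 (SE 0.14, adjusted p = 3.19e-06 by edgeR's quasi-likelihood test, Benjamini-Hochberg adjusted), with a 95% interval from -3.88 to -3.23. This lay below the interval of Klf1, which ran from -2.81 to -2.25. Klf3 spans bases 64803388 to 64832901 of chromosome 5.

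Among the factors that can bind Sin3a, Klf11, Klf16 and Klf9 were lower. Klf11, first known as a gene induced by TGF-beta, had 26.7, 25.9 and 25.5 CPM in EKLF+/+ and 5.91, 6.19 and 7.17 CPM in EKLF-/-. Its libraries were tight within each group and did not overlap between groups. The log2 fold change was -2.02 (SE 0.14, adjusted p = 5.33e-05, edgeR's quasi-likelihood test, Benjamini-Hochberg adjusted). Klf16, also known as dopamine receptor regulating factor, had 85.8, 76.9 and 84.7 CPM in EKLF+/+ and 48.5, 54.1 and 55.3 CPM in EKLF-/-. Its change was smaller, with a log2 fold change of -0.65 (SE 0.10, adjusted p = 0.00475, same test), and the groups did not overlap. Klf9, which answers to glucocorticoid and thyroid hormone, was the lowest member, at 8.22, 6.93 and 6.22 CPM against 3.75, 2.14 and 3.31 CPM. Its log2 fold change was -1.21 (SE 0.25, adjusted p = 0.0133, same test), and these levels rest on 75 to 104 counts per EKLF+/+ library and 28 to 54 per EKLF-/- library. Without EKLF+/+ replicate 1 the call for Klf9 was lost, at a log2 fold change of -1.10 and an adjusted p of 0.0605 by the same test.

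The other members of that group did not pass the test. Klf10, also known as TGF-beta inducible early gene, had 28, 25.4 and 27 CPM in EKLF+/+ and 22.9, 22.5 and 22.9 CPM in EKLF-/-, a log2 fold change of -0.24 with an interval from -0.49 to 0.02. Klf13, a regulator of the chemokine gene RANTES in T cells, had 112, 129 and 109 CPM in EKLF+/+ and 157, 121 and 143 CPM in EKLF-/-, with overlap between the groups. Its log2 fold change was 0.27 (adjusted p = 0.154 by edgeR's quasi-likelihood test, Benjamini-Hochberg adjusted). With a correction for gene length it was 0.52 and passed the test (adjusted p = 0.00187), and without EKLF-/- replicate 2 it was 0.35 and also passed (adjusted p = 0.0295). The direction of Klf13 was upward in each of these fits.

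The members known from myeloid and endothelial cells did not pass the test either. Klf4 had 15, 11.5 and 12.3 CPM in EKLF+/+ and 13.9, 14.2 and 13.4 CPM in EKLF-/-, and its groups overlapped. Its log2 fold change was 0.10 with an interval from -0.24 to 0.45 (adjusted p = 0.635, edgeR's quasi-likelihood test, Benjamini-Hochberg adjusted). Klf6 had 68.8, 66.4 and 66.4 CPM against 53.4 to 66.4 CPM in EKLF-/-, a log2 fold change of -0.13 with an interval from -0.39 to 0.13. Klf2 had 27.6, 26.8 and 22.9 CPM in EKLF+/+ and 12.7, 22.2 and 20.2 CPM in EKLF-/-, with no overlap. Its log2 fold change of -0.49 did not pass the test (adjusted p = 0.118, same test), and it passed without EKLF-/- replicate 2, at -0.67 (adjusted p = 0.0316, same test). A p that misses the threshold does not show that these levels are equal.

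Markers of other cells moved in the same libraries. Summed levels of the erythroid-like markers were 3830 to 5870 CPM in EKLF-/- against 14200 to 18400 CPM in EKLF+/+, and 5 of the 8 tested were lower. Of the 4 markers of granulocyte-monocyte progenitor-like cells, 3 were higher, with 5130 to 10500 CPM against 3540 to 4890 CPM, and of the 6 monocyte-like markers 2 were higher. Of the 7 neutrophil-like markers 3 were higher and 1 was lower, with 2740 to 4960 CPM against 1600 to 2520 CPM, and of the 5 progenitor-like markers 2 were lower, with 297 to 323 CPM against 392 to 478 CPM. Of the 14 macrophage-like markers 3 were lower and 11 were not called, with 342 to 526 CPM against 344 to 416 CPM. Of the 6 endothelial-like markers 5 were lower, with 113 to 124 CPM against 186 to 224 CPM, and of the 6 mesenchymal-like markers 5 were lower, with 20 to 31.3 CPM against 36.2 to 135 CPM. Several of these marker calls ended with 1 library left out. Elane was lost without EKLF+/+ replicate 2 or 3, and Prtn3, like Elane of the granulocyte-monocyte progenitor-like list, without any 1 of the EKLF+/+ libraries. Lyz2, of the monocyte-like list, was lost in 4 of the 6 fits, as was the mesenchymal-like marker Col1a1, and Pdgfra of that list was lost in 5. Of the neutrophil-like list, S100a8 was lost without any 1 of the EKLF+/+ libraries, and Camp and Mmp8 were each lost in 3 of the 6 fits. Without EKLF+/+ replicate 2 Col1a1 moved from -2.27 to -1.16 and Pdgfra from -2.27 to -1.32 on the log2 scale, and without EKLF-/- replicate 2 Elane moved from 2.06 to 1.35. The alpha-globin gene Hba-a1 was listed at 0 in every library of this set. In bulk RNA, fewer cells of a type and less RNA per cell cannot be told apart, and the part of these shifts in the changes of the Klf genes was not tested.

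EKLF/GFP+ and EKLF/GFP- cells split the family in both directions. Klf1, Klf3, Klf9, Klf11 and Klf16 were higher in EKLF/GFP+ cells, Klf2, Klf4, Klf6 and Klf10 were lower, and Klf13 was not called. That is 9 of 10 members called, where 44.7% of all genes were, and with 5 of 10 higher, where 18.9% of the 14238 genes tested were called higher, and 4 of 10 lower, where 25.8% were called lower. Without overlap between the groups, 5 members lay higher and 3 lower, against 25.2% and 30.5% of all genes and 55.7% in either direction. Klf1 counts among the higher members although the sort used its promoter. Over the members the median log2 fold change was 0.32, and over all genes it was -0.01. One of the 4 lower members, Klf4, passed the count minimum through its EKLF/GFP- libraries alone.

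Klf1 checks the GFP gate, since its promoter drives the reporter, and its level is no independent finding here. Klf1 had 101, 90.2 and 87.3 CPM in EKLF/GFP+ and 34.6, 45.7 and 28.6 CPM in EKLF/GFP-, or 1.35 (SE 0.16) as a log2 fold change. EKLF/GFP- cells thus still held Klf1 RNA. Klf3 had 109, 99.2 and 109 CPM against 56.9, 56.6 and 52.3 CPM, and the groups did not overlap. Its log2 fold change was 0.93 (SE 0.08, adjusted p = 5.13e-05, edgeR's quasi-likelihood test, Benjamini-Hochberg adjusted). Klf9 had 2.43, 2.03 and 1.87 CPM against 0.539, 0.986 and 0.424 CPM, from 10 to 67 counts per library. The log2 fold change of Klf9 was 1.68 (SE 0.33, adjusted p = 0.00401, same test).

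Klf16 and Klf11 were higher as well. Klf16 had 7.18, 7.38 and 8.31 CPM in EKLF/GFP+ and 4.35, 3.63 and 3.61 CPM in EKLF/GFP-, which gave a log2 fold change of 0.98 (SE 0.15, adjusted p = 0.00108, edgeR's quasi-likelihood test, Benjamini-Hochberg adjusted). Klf11 had 13.3, 12 and 12.4 CPM against 8.92, 8.03 and 6.02 CPM, a log2 fold change of 0.71 (SE 0.16, adjusted p = 0.00722, same test). Neither gene overlapped between the groups. The 5 members that were higher here are the 5 that were lower in EKLF-/-, and the comparisons share no library. Klf1 is fixed by the design of both, which leaves Klf3, Klf9, Klf11 and Klf16. Of the 1237 genes called lower in EKLF-/- and tested in both sets, 50.3% were higher in EKLF/GFP+, and of the 2498 called higher in EKLF/GFP+, 24.9% were lower in EKLF-/-.

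Klf4 and Klf2 were lower in EKLF/GFP+ cells. Klf4, which takes part in monocyte differentiation, had 6.54, 6.13 and 5.6 CPM in EKLF/GFP- and 0.290, 0.249 and 0.278 CPM in EKLF/GFP+. The latter are 8, 6 and 7 counts, against 182, 174 and 132, so that Klf4 passed the minimum only where it was high. The log2 fold change was -4.46 (SE 0.21, adjusted p = 8.08e-06, edgeR's quasi-likelihood test, Benjamini-Hochberg adjusted), and with no count minimum it was -4.43 (adjusted p = 1.32e-07, same test). Over the 14 settings in which Klf4 was fitted it ran from -4.47 to -3.24. Klf2, a flow-responsive factor of endothelium that also restrains myeloid activation, had 2.8, 1.94 and 3.39 CPM in EKLF/GFP- and 0.508, 0.622 and 0.796 CPM in EKLF/GFP+. Its groups did not overlap, and the log2 fold change was -2.07 (SE 0.30, adjusted p = 0.000851, same test).

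Klf6 and Klf10 passed the test by less and did so in fewer settings. Klf6, first found as a protein that binds core promoter elements, had 45.2, 27.3 and 37.5 CPM in EKLF/GFP- and 17.4, 18.5 and 27.9 CPM in EKLF/GFP+, so that the groups overlapped. The fold change of Klf6 on the log2 scale was -0.78 (SE 0.23, adjusted p = 0.0234, edgeR's quasi-likelihood test, Benjamini-Hochberg adjusted). With protein-coding transcripts alone it was -0.15 (adjusted p = 0.779, same test), a choice made after the data were seen, and limma on the normalized values of the authors gave -0.185 and -0.168 at pseudocounts of 1 and 10 (adjusted p = 0.764 and 0.771). Klf10 had 22.5, 20.5 and 23.5 CPM in EKLF/GFP- and 18.5, 15.5 and 18.6 CPM in EKLF/GFP+. The log2 fold change of Klf10 was -0.34 (SE 0.11, adjusted p = 0.0369, same test), and with DESeq2 it was -0.30 and missed the threshold (adjusted p = 0.0594). Leaving out EKLF/GFP+ replicate 1 or 2 or EKLF/GFP- replicate 1 or 3 ended the calls of both genes, with log2 fold changes from -0.78 to -0.62 for Klf6 and from -0.35 to -0.24 for Klf10. Klf13 had 6.05 to 6.84 CPM in EKLF/GFP+ and 6.45 to 6.76 CPM in EKLF/GFP-, which gave a log2 fold change of -0.08 with an interval from -0.37 to 0.22 that turned to 0.06 with a correction for gene length.

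Blood lineage markers differed strongly between the EKLF/GFP groups. All 11 erythroid-like markers tested were higher in EKLF/GFP+, with summed levels of 14100 to 17900 CPM against 7340 to 9920 CPM. All 6 monocyte-like and all 8 neutrophil-like markers were lower, at 67.8 to 115 CPM against 1010 to 1160 CPM and at 115 to 302 CPM against 1420 to 2030 CPM. Of the 14 macrophage-like markers 2 were lower and 12 were not called, with 223 to 622 CPM against 383 to 572 CPM, while DESeq2 called 3 lower and 2 higher. All 4 markers of granulocyte-monocyte progenitor-like cells, all 5 progenitor-like markers, 5 of 6 endothelial-like markers and 2 of 5 mesenchymal-like markers were also lower, of which Col1a1 was called in only 1 of the 6 fits that leave out a library. All 5 lymphoid-like markers tested were lower, with 8.81 to 11.6 CPM against 44.6 to 52 CPM. Of the 7 megakaryocyte-like markers 6 were higher and 1 was lower, with 162 to 240 CPM against 104 to 124 CPM. Among the fits that leave out a library, the higher marker Gp1bb was called only without EKLF/GFP- replicate 1 or 3. Of the 15 immediate early genes tested, which respond to handling of cells, 6 were lower and 3 were higher, with Jun (log2 fold change -1.53) and Zfp36 (-1.501) the largest falls. In EKLF-/- 5 of these 15 were lower and 1 was higher. Klf2, Klf4, Klf6 and Klf10 moved in the direction of the monocyte-like and neutrophil-like markers, and Klf1, Klf3, Klf9, Klf11 and Klf16 in that of the erythroid-like and most megakaryocyte-like markers. The part of those cells in the results was not tested.

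**Figure D1:**
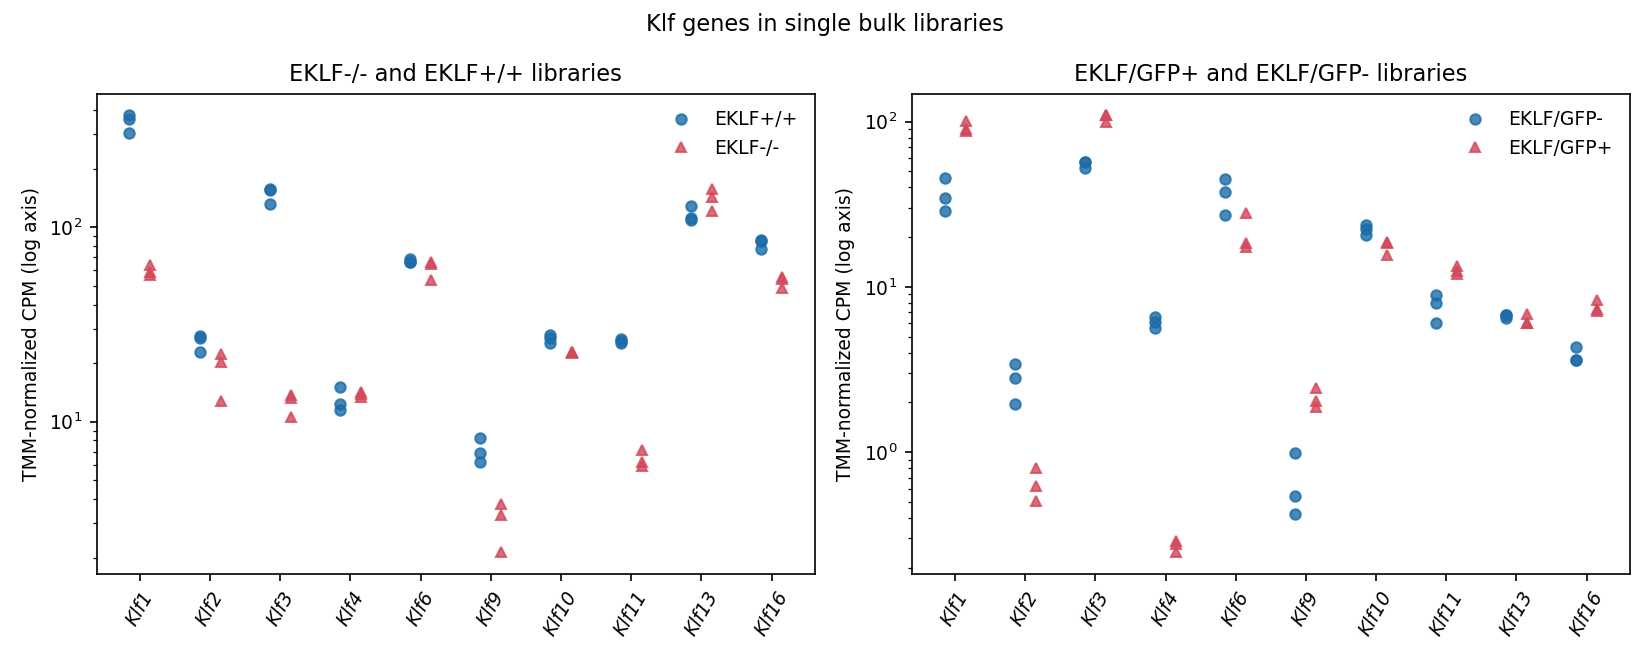
CPM of the 10 Klf genes in each bulk library on a log axis, with circles for EKLF+/+ (left) or EKLF/GFP- (right) and triangles for EKLF-/- (left) or EKLF/GFP+ (right). Klf3 fell from 131 to 157 CPM to 10.6 to 13.7 CPM in EKLF-/-, and Klf4 stood at 0.249 to 0.290 CPM in EKLF/GFP+ against 5.6 to 6.54 CPM in EKLF/GFP-.

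**Figure D2:**
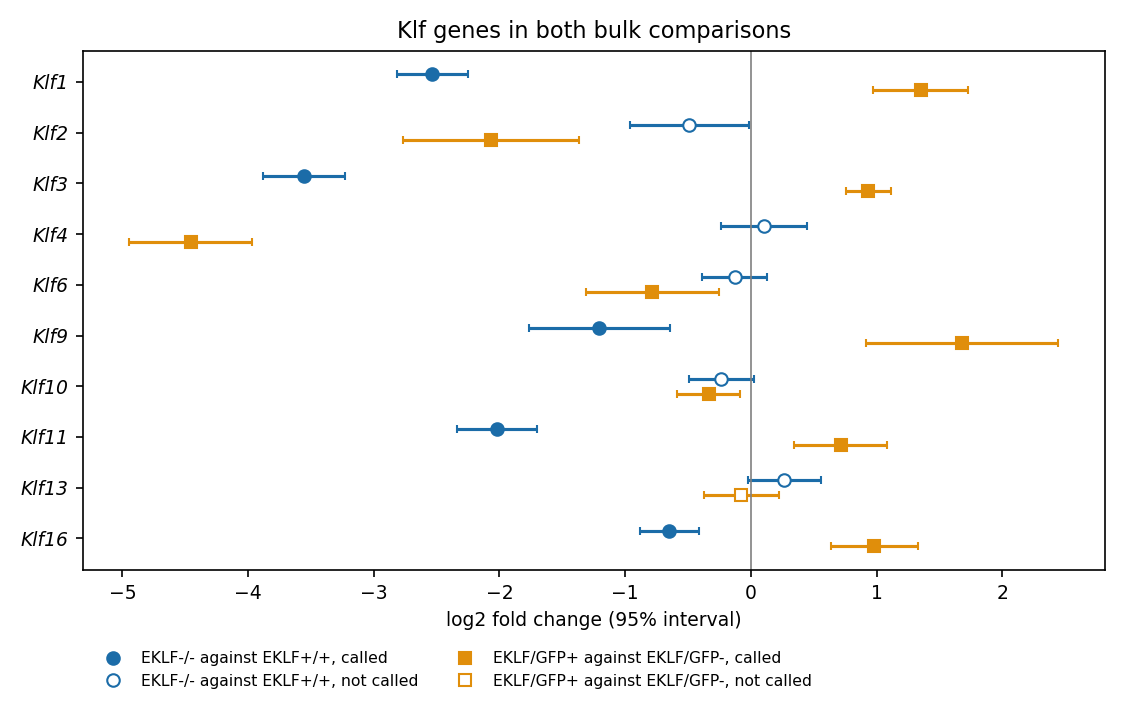
Log2 fold changes of the 10 Klf genes with 95% intervals in both bulk comparisons, where filled marks passed the test and open marks did not. Klf1, Klf3, Klf9, Klf11 and Klf16 lie left of 0 in EKLF-/- and right of 0 in EKLF/GFP+.

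Other Klf genes and the related Sp genes were counted next, beside 20.3% of all genes called in either direction in EKLF-/- and 44.7% in EKLF/GFP+. Of the other Klf genes, 5 were tested in EKLF-/- and 0 were called. One of them was lower at an unadjusted p under 0.05 and 1 was called lower by DESeq2. Klf12, named after its values were seen, had the smallest p of the 5 (log2 fold change -1.36, adjusted p = 0.0617, edgeR's quasi-likelihood test, Benjamini-Hochberg adjusted). In EKLF/GFP+ cells 4 of them were tested and 2 were lower, Klf8 (log2 fold change -0.96, adjusted p = 0.0109, edgeR's quasi-likelihood test, Benjamini-Hochberg adjusted) and Klf5 (-0.74, adjusted p = 0.013, same test). Of the Sp genes, whose products bind the same GC-rich boxes, 4 were tested in each set. Sp4 and Sp3 were lower in EKLF-/- (log2 fold changes of -0.96 and -0.65) and higher in EKLF/GFP+ (0.83 and 0.19). In EKLF-/- replicate 2 stood lowest for Sp4, at 11.1 CPM against 22 and 26.8 CPM, and for Sp3, at 81.3 CPM against 111 and 127 CPM. Without it the changes were -0.69 and -0.50 and still passed the test. Both calls ended without EKLF-/- replicate 3 or any 1 of the EKLF+/+ libraries, and Sp3 in EKLF/GFP+ was called in 1 of the 6 fits with a library left out. Without EKLF/GFP- replicate 1 the call of Klf5 ended. Neither Klf5 nor Klf8 passed the test in EKLF-/-, at log2 fold changes of -0.30 and -0.28.

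Taken in either direction, cofactors of the family were called at about the rate of all genes. Of 17 tested in EKLF-/- 4 were lower, 0 were higher and 13 were not called. Among all genes 10.6% were lower there and 9.72% higher. The largest falls were those of Kat2b (log2 fold change -1.23) and Crebbp (-0.95), which encode acetyltransferases. Of 16 tested in EKLF/GFP+ 4 were lower and 3 were higher, where 25.8% and 18.9% of all genes were. Fhl3 (-1.51) and Ctbp2 (-0.64) were lower there, and Tada2b (0.51) and Ctbp1 (0.46) were higher. In EKLF-/- replicate 2 Crebbp stood at 25.6 CPM against 49.6 and 54.6 CPM in the other libraries of the group, and without it the change was -0.70 and still passed the test. The call of Crebbp ended without EKLF-/- replicate 3 or any 1 of the EKLF+/+ libraries, that of Kat2b in none of these fits. Those of Ctbp1, Ctbp2 and Tada2b each ended in at least 1 fit with a library left out. Median log2 fold changes of this list were 0.02 and -0.05.

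Known target genes of EKLF, a list that holds Klf3 and Klf8, were called in most cases. Of 24 tested in EKLF-/- 15 were lower, 1 was higher and 8 were not called, at a median log2 fold change of -1.23. The largest falls were those of Dmtn, which encodes the membrane skeleton protein dematin (-7.66), and of the beta-globin gene Hbb-bs (-5.28), and the gene that rose was the cell cycle inhibitor Cdkn1b (0.38). Of 24 tested in EKLF/GFP+ 20 were higher and 1, Klf8, was lower, at a median of 1.203. Glucocorticoid response genes were examined because Klf9 responds to glucocorticoids. One of 6 tested was lower in EKLF-/-, the receptor gene Nr3c1 (-0.53), and in EKLF/GFP+ 3 of 6 were lower, with Tsc22d3 (-1.89) and Zbtb16 (-1.36) first, and Nr3c1 was higher (0.30). With a library left out, the call of Cdkn1b held only without EKLF-/- replicate 1. That of Nr3c1 in EKLF-/- held only without EKLF-/- replicate 1 or 2, and in EKLF/GFP+ it ended without EKLF/GFP- replicate 1.

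Levels were compared between genes per length of the longest transcript. In EKLF+/+ cells Klf1 led at 227 ± 24.7 CPM per kilobase (SD, n = 3), followed by Klf16 (30.9 ± 1.81), Klf3 (28.3 ± 2.72), Klf13 (18.3 ± 1.69) and Klf6 (15.9 ± 0.334). Klf2 (14 ± 1.37), Klf10 (8.81 ± 0.422), Klf11 (6.37 ± 0.153), Klf4 (4.27 ± 0.598) and Klf9 (1.59 ± 0.226) came next. Of these neighbours, Klf16 and Klf3 overlapped between libraries and the others did not. In EKLF-/- cells Klf1 was still first, at 39.2 ± 2.44 CPM per kilobase, and Klf3 had fallen behind Klf4 to 2.41 ± 0.323. In EKLF/GFP+ cells Klf1 (60.6 ± 4.56) and Klf3 (20.2 ± 1.06) led and Klf4 was last (0.09 ± 0.00704), whereas in EKLF/GFP- cells Klf4 stood at 2.01 ± 0.156 and Klf9 was last (0.145 ± 0.0661).

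Other neighbours in these orders overlapped. In EKLF-/- cells they were Klf13 (22 ± 2.88) with Klf16 (19.7 ± 1.35), and Klf2 (9.95 ± 2.71) with Klf10 (7.47 ± 0.0761). In EKLF/GFP- cells Klf6 (8.67 ± 2.12) overlapped Klf3 (10.6 ± 0.491) above it and Klf10 (7.28 ± 0.509) below it. Further down in these cells Klf4, Klf11 (1.87 ± 0.363), Klf2 (1.47 ± 0.397) and Klf16 (1.44 ± 0.159) each overlapped their neighbour in this order. In EKLF/GFP+ cells the overlapping pairs were Klf10 with Klf6, Klf11 with Klf16 and Klf9 with Klf2. By the TPM that the authors deposited, Klf3 led in both EKLF/GFP groups, at 83.8 ± 15.2 TPM in EKLF/GFP+ and 46.3 ± 6 TPM in EKLF/GFP-. Klf1 came next in EKLF/GFP+ (41.3 ± 5.3 TPM). In EKLF/GFP- it stood at 16.8 ± 3.91 TPM, behind Klf6 (26.8 ± 8) and Klf10 (17 ± 3.6), with overlapping libraries. Of the TPM of Klf3, 19.7% to 40.9% came from Klf3-207, an annotated fragment of 298 bases, and 26.6% to 44.3% from Klf3-202, of 1562 bases. The CPM per kilobase of Klf3 used its longest form, of 5221 bases.

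The sets were counted by different tools, and levels are not compared across them by a test. Klf13 had a mean of 117 CPM in EKLF+/+ and 6.32 CPM in EKLF/GFP+, and Klf16 had 82.5 CPM and 7.63 CPM. Klf2 had 25.8 CPM in EKLF+/+, 0.642 CPM in EKLF/GFP+ and 2.71 CPM in EKLF/GFP-. Klf3 had 148 CPM and 106 CPM in EKLF+/+ and EKLF/GFP+. The cause of these gaps was not tested.

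Salmon, the tool used for the EKLF/GFP set, divides reads among annotated transcripts. Klf3 has 9 of them, and 47.1% to 74.3% of its estimated counts per library went to Klf3-202, a protein-coding form that starts at 64812339 on chromosome 5. The form that starts at 64803388, Klf3-201, had 3.96% to 5.97%. The promoter window shown for Klf3 is set on the RefSeq start and also covers the first base of Klf3-201, which lies before that start. The downstream start of Klf3-202 was not used here. For Klf6 the protein-coding Klf6-201 held 12.0% to 26.3% of the estimated counts, Klf6-203, annotated for nonsense-mediated decay, held 48.6% to 57.7%, and the retained-intron form Klf6-202 held 22.6% to 34.6%. Klf6-201 alone had 83.7, 81.3 and 184 estimated counts in EKLF/GFP+ and 151, 96.5 and 152 in EKLF/GFP-, which overlap. Klf1, Klf2 and Klf16 have 1 transcript each.

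**Figure D3:**
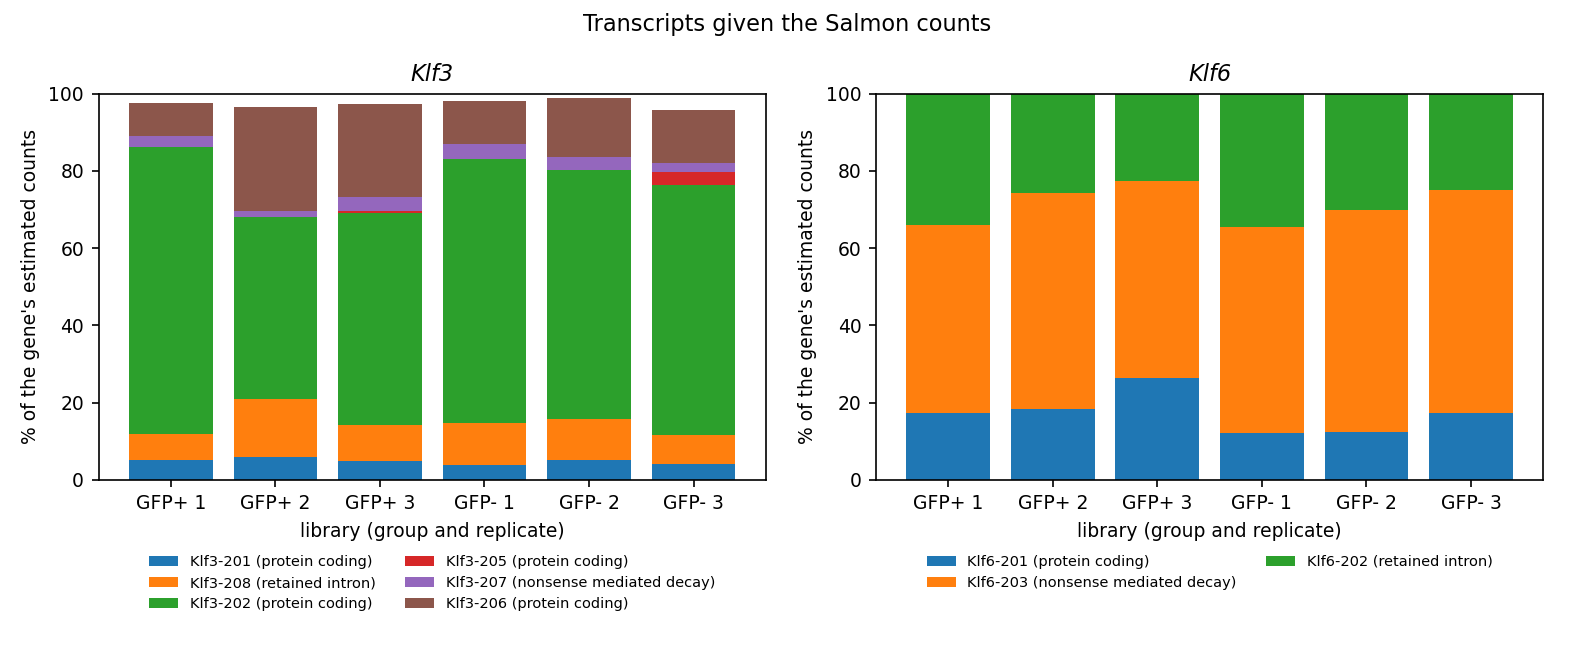
Share of the estimated counts of Klf3 and Klf6 given to each annotated transcript in the 6 EKLF/GFP libraries, as stacked bars in percent, where forms that stay under 3% in every library are left out. Klf3-202 takes 47.1% to 74.3% for Klf3, and Klf6-203 takes 48.6% to 57.7% for Klf6.

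Single EKLF+/+ cells were used to see which cells held each Klf RNA. Of 3096 cells, 3093 had at least 200 detected genes, with a median of 18605 counts, and they formed 14 clusters without any Klf or Sp gene among the clustering genes. Clusters 4, 6 and 7 were erythroid-like (618 cells), and clusters 0, 1 and 2 were macrophage-like (1440 cells). Cluster 4 had 3 of 11 erythroid-like markers raised at least 2-fold and none among its 10 leading genes, and 2.09% of its counts were globin RNA against 39.5% and 76.7% in clusters 6 and 7. Cluster 8, with raised markers of both classes, and cluster 13, with few counts per cell, were left unnamed. Scrublet marked 0 cells as doublets, and none were removed.

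The levels of the members were compared between erythroid-like and macrophage-like cells. By a fixed limit of 2-fold, Klf1, Klf9 and Klf16 were higher in erythroid-like cells, Klf2, Klf4, Klf6 and Klf10 were higher in macrophage-like cells, and Klf3, Klf11 and Klf13 were neither. That is 3 of 10 members higher and 4 of 10 lower in erythroid-like cells, against 8.76% and 41.0% of all genes with at least 1 CPM in either class, so that the share lower is near that of all genes. With 1 library there is no test, and the 95% intervals given are exact and cover counting error only. Shares of cells are followed by 95% Wilson intervals.

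Klf1 had the widest gap between the classes. Summed counts gave 132 CPM in erythroid-like cells (126.9 to 137 CPM) and 2.16 CPM in macrophage-like cells (1.63 to 2.81 CPM), a ratio of 61.0 (46.8 to 81.0). Within the erythroid-like class it was 144 CPM in cluster 4, 164 CPM in cluster 6 and 35.7 CPM in cluster 7, the cluster richest in globin RNA. Over counts other than globin these were 147, 270.3 and 153 CPM, so that the low value of cluster 7 was not seen on that scale. Klf1 was found in 78.6% of erythroid-like cells (75.2% to 81.7%) and in 3.68% of macrophage-like cells (2.82% to 4.78%), at median depths of 27335 and 14496 counts. Hepatoblast-like cells, which should lack the gene, had it in 7.81% of 64 cells (3.38% to 17.0%) at a median depth of 25304 counts and at 2.51 CPM. With each cell thinned to 5000 counts the shares were 42.1%, 1.04% and 0%. The macrophage-like level of Klf1 was thus within the counting interval of the hepatoblast-like level, 0.816 to 5.87 CPM, and is read as background. Of 60 thinned hepatoblast-like cells 0 held it, and the upper Wilson bound was 6.02%.

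Outside the erythroid-like clusters, megakaryocyte-like cells had 42.3 CPM of Klf1 (35.7 to 49.7 CPM). Mast cell- or basophil-like cells had 4.82 CPM, and the other named classes had 1.502 to 2.64 CPM. The unnamed cluster 8, where macrophage-like and some erythroid-like markers were both raised, had 12.8 CPM (7.60 to 20.3 CPM). The unnamed cluster 13, of 54 cells with few counts and with 11 of 14 macrophage-like markers raised, had 16.6 CPM (5.40 to 38.8 CPM) from 5 counts. Cluster 8 had 13115 CPM of Hbb-bs, against 1759 to 3873 CPM in the macrophage-like clusters.

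Klf9 and Klf16 were also higher in erythroid-like cells, Klf9 mainly in cluster 4 and Klf16 in clusters 4 and 6. Klf9 had 7.51 CPM in erythroid-like cells against 1.00 CPM in macrophage-like cells, a ratio of 7.48 (4.91 to 11.8) that was 4.34 (1.61 to 12.8) after thinning to 5000 counts per cell. Cluster 4 held 12.2 CPM of it (10.3 to 14.4 CPM) and cluster 6 held 1.51 CPM (0.650 to 2.97 CPM), so that 140 of its 150 counts in the class came from cluster 4. Klf16 had 18.9 CPM against 7.88 CPM, a ratio of 2.40 (2.02 to 2.86). After thinning its ratio was 1.98 (1.36 to 2.88), under the limit, which left 2 members at least 2-fold higher. Klf16 stood at 23.8 CPM in cluster 4 (21.1 to 26.8 CPM), 19.0 CPM in cluster 6 (15.5 to 23.1 CPM) and 1.25 CPM in cluster 7, the last being 5.39 CPM over counts other than globin. Hepatoblast-like cells held 2.51 CPM of Klf9 and 11.1 CPM of Klf16. They do not set a background for these genes, since neutrophil-like cells held less of both, 0.188 and 5.07 CPM. Without cluster 4, an alternative chosen after the data were seen, the ratios were 1.17 for Klf9 and 1.57 for Klf16, and Klf1 was the only one of the 10 members at least 2-fold higher in erythroid-like cells.

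Klf3 did not follow Klf1 across cells. It had 46.8 CPM in erythroid-like cells (43.8 to 49.9 CPM) and 85.9 CPM in macrophage-like cells (82.3 to 89.5 CPM), a ratio of 0.54 (0.50 to 0.59). With globin RNA left out of the totals the ratio was 0.71, and erythroid-like clusters 4, 6 and 7 held 41.3, 122 and 104 CPM of Klf3 on that scale. Macrophage-like clusters 0, 1 and 2 held 64.8, 86.1 and 104 CPM, erythroid-like clusters 4, 6 and 7 held 40.4, 74.0 and 24.1 CPM, and endothelial-like cells held 88.4 CPM. The lowest named class was megakaryocyte-like, at 18.6 CPM. After thinning, 19.0% of erythroid-like cells (16.1% to 22.3%), 31.6% of macrophage-like cells (29.2% to 34.0%) and 15.0% of hepatoblast-like cells (8.10% to 26.1%) held Klf3. In bulk the EKLF-/- libraries held 10.6 to 13.7 CPM of Klf3, and no single-cell library of EKLF-/- cells was analysed here to say which cells lost it.

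Klf2, Klf4 and Klf6 lay on the other side. Klf2 had 120 CPM in macrophage-like and 6.61 CPM in erythroid-like cells, a macrophage-like level 18.2 times as high (15.3 to 21.8). Klf4 had 14.2 CPM against 1.25 CPM, 11.3 times as high (7.55 to 17.7), and Klf6 had 181 CPM against 21.6 CPM, 8.38 times as high (7.59 to 9.27). Hepatoblast-like cells had 24.1 CPM of Klf2, 1.01 CPM of Klf4 and 22.6 CPM of Klf6. The erythroid-like level of Klf4 was within the counting interval of the hepatoblast-like one, 0.122 to 3.63 CPM. That interval rests on 2 counts, so background and low expression cannot be told apart. For Klf2 and Klf6 the hepatoblast-like cells do not set a background, since erythroid-like cluster 4 held less of both. Erythroid-like clusters 4, 6 and 7 held 14.7, 28.4 (24.1 to 33.3) and 34.8 (28.6 to 41.9) CPM of Klf6. Over counts other than globin they held 15.0, 47.0 and 149 CPM of it, against 160.2 CPM in macrophage-like cluster 1. For Klf4 the erythroid-like to macrophage-like ratio of 0.0883 was 0.167 after thinning and 0.139 among cells with at least 1000 detected genes. These genes were uneven among macrophage-like clusters. Cluster 2, led by Fcrls and Cx3cr1 and with 5 of 14 macrophage-like markers raised, had 218 CPM of Klf2, 29.9 CPM of Klf4 and 337 CPM of Klf6. Cluster 1, led by Cd5l, Marco and Vcam1, had 99.0, 10.4 and 159 CPM, and cluster 0 had 38.7, 1.51 and 32.7 CPM at a median depth of 9697 counts per cell, under the other macrophage-like clusters.

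Monocyte-like cells held the most Klf4 of all clusters. Klf4 had 140 CPM there (131.7 to 149 CPM), and it was found in 64.7% of the 286 monocyte-like cells, or in 40.3% after thinning, against 3.69% of macrophage-like and 0.813% of erythroid-like cells after thinning. Neutrophil-like cells had 14.8 CPM of it. Klf2 was at 215 CPM in monocyte-like and 183 CPM in neutrophil-like cells. Klf6 was at 321 CPM in monocyte-like and 315 CPM in mast cell- or basophil-like cells.

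Klf10, Klf13 and Klf11 remain. Klf10 had 22.5 CPM in macrophage-like and 6.91 CPM in erythroid-like cells, 3.26 times as high (2.70 to 3.95), and its highest named class was endothelial-like, at 35.5 CPM. Klf13 was found in every cluster, at 38.5 CPM in macrophage-like and 25.7 CPM in erythroid-like cells, with its peak of 78.2 CPM in monocyte-like cells and its low of 4.39 CPM in erythroid-like cluster 7, or 18.9 CPM over counts other than globin. Klf11 had 3.90 CPM and 4.96 CPM in these classes, an erythroid-like to macrophage-like ratio of 1.27 with an interval from 0.95 to 1.69 that includes 1. After thinning the ratio of Klf11 was 0.92. Both levels of Klf11 and the erythroid-like level of Klf10 lay within the hepatoblast-like intervals, 1.11 to 6.57 CPM and 4.22 to 12.4 CPM.

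**Figure D4:**
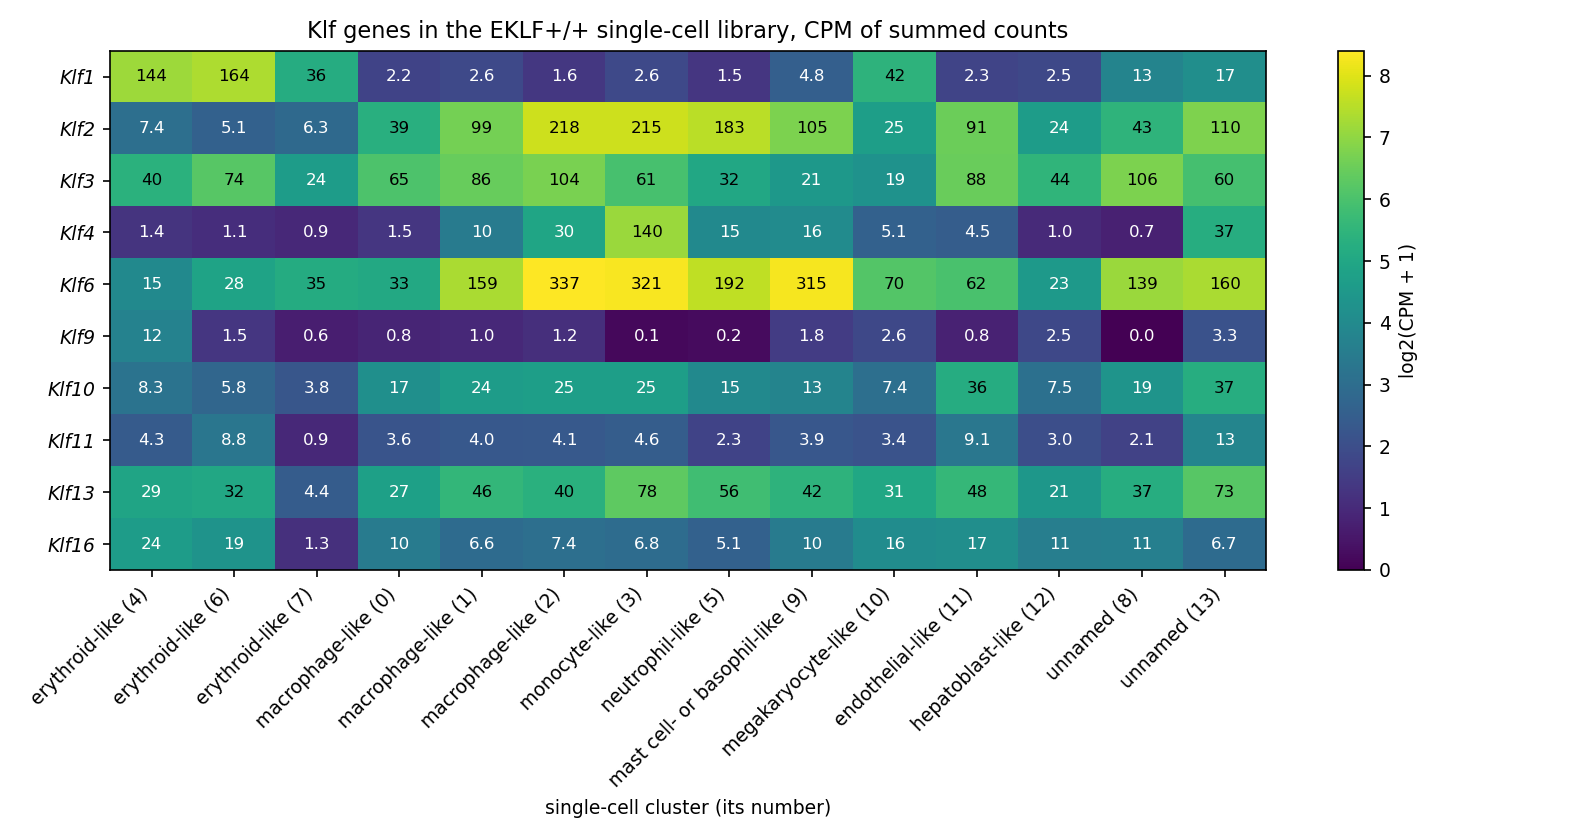
CPM of summed counts of the 10 Klf genes in each of the 14 single-cell clusters, printed in the cells and coloured by log2(CPM + 1). Klf1 is high in erythroid-like clusters 4 and 6 (144 and 164 CPM), Klf4 in the monocyte-like cluster (140 CPM), and Klf3 is spread over most clusters.

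Genes whose levels followed a member most closely over the 14 clusters were found among 11706 others with at least 10 CPM in some cluster, by Pearson's r of log2(CPM + 1). These are descriptions, since the clusters share 1 library and differ in depth. For Klf1 they were Slc38a5 (0.97), a glutamine transporter gene, the carbonic anhydrase gene Car2 (0.965) and Rfesd (0.96). For Klf2 they were Ankrd44 (0.96), Map3k3 (0.95) and Zfp516 (0.95). For Klf3 they were Cltc, which encodes the clathrin heavy chain (0.87), Lysmd3 (0.86) and Gnpda1 (0.85). For Klf4 they were Gm38236 (0.91), Gm26740 (0.91) and Nfkbid (0.91).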

How the data were processed

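RNA was measured in F4/80+ cells of E13.5 fetal liver. The deposited counts of the genotype libraries came from HTSeq after alignment by the authors with STAR (mm10), and they were used as they were. In the file of EKLF+/+ replicate 1, 5 further columns of per-sample values were left aside. Of the reads, 27.3% to 32.8% were on genes, and the summary rows of HTSeq that hold the rest were left out. Of the gene symbols, 1919 older ones were replaced by current ones. A table of the authors' own fold changes was not used. For the EKLF/GFP libraries the authors ran Salmon on GRCm38 transcripts, and the deposited estimated counts and TPM per transcript were joined to genes, summed and rounded here (115898 of 116546 transcripts were joined). The signal values that the authors normalized from those estimates with DESeq2 served in alternatives. Single-cell expected counts were estimated by the authors with alevin. These tool names come from the submitters' processing notes and the paper.

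A gene was kept if 3 or more of the 6 libraries had 10 or more counts. The quasi-likelihood test of edgeR 4.0.16 (R 4.3.3) was used with TMM, two-sided, each set on its own, and p-values were adjusted by the Benjamini-Hochberg method over all genes tested. Alternatives used DESeq2 1.42.0 and limma 3.58.1. The paper calls the libraries biological triplicates, and p-values measure the spread between these samples. Cells with at least 200 genes were clustered with Seurat 5.3.0 from 4000 variable genes and 30 components at a resolution of 0.8, and the paper gives no limits for its own cell filter. A cluster was named from marker lists where at least 3 markers were at least 2-fold above the other cells at 10 CPM or more. Genome coordinates are those of GRCm38, and promoter windows are those of RefSeq. The tests were checked on simulated counts.

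The members, the gene lists and the tests were chosen with earlier results of these data known. All members are named, with up to 4 genes of each list described, namely the largest falls and rises among those called, and for Klf1 to Klf4 the 3 genes most alike over clusters. The depth of a library sets its counting error, which is largest for Klf9 and, in EKLF/GFP+ cells, Klf4.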

Additional observations from a re-analysis of the deposited data

How the results depend on the processing

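In EKLF-/- against EKLF+/+, 5 members were lower in each setting tried, except for 4 without EKLF+/+ replicate 1 (Klf9 lost) and 6 without EKLF-/- replicate 2 (Klf2 gained). The count of higher members went from 0 to 1, through Klf13, with the gene length correction, with the replicate block plus that correction, and without EKLF-/- replicate 2, and its range with 1 library left out was 0 to 1. In EKLF/GFP+ against EKLF/GFP-, the 4 lower members became 2 in limma on the normalized values of the authors, at a pseudocount of 1 or 10, and 1 to 4 with 1 library left out. They were 3 with DESeq2, with its size factors, with no count filter, with the length correction or with the block plus length correction (Klf10 lost in each), 3 with 10 counts asked of every library (Klf4 not tested), and 3 with protein-coding transcripts alone (Klf6 lost). They were 2 without EKLF/GFP+ replicate 1 or 2 and 1 without EKLF/GFP- replicate 1 or 3, where Klf4 fell below the count minimum and could not be fitted, and 3 without EKLF/GFP- replicate 2 for the same reason. Klf13 turned to 0.057 with the gene length correction and to 0.056 with the replicate block plus that correction, on the log2 scale. Members at least 2-fold higher in erythroid-like cells went from 3 to 1 without erythroid-like cluster 4, an alternative chosen after seeing the data, and to 2 after thinning to 5000 counts per cell (Klf16 lost). The cause of these changes was not tested. Correlations of same-numbered deviations were -0.019, -0.11 and 0.02 in the genotype set and 0.104, -0.165 and -0.124 in the GFP set. Those of unlike numbers ran from -0.161 to 0.109 and from -0.261 to 0.316. At 3 libraries per group these values cannot settle whether replicate numbers pair the samples. With the replicate block 1037 genes were lower and 864 higher in EKLF-/-, against 1356 and 1239 without it. In EKLF/GFP+ 3422 genes were lower and 2363 higher with the block, against 3674 and 2694 without it. Leaving out cells marked as doublets was not run, because Scrublet marked 0. Depth limits Klf9 and, in EKLF/GFP+ cells, Klf2 and Klf4, which rest on 6 to 20 counts there.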
